A study of Sus scrofa with 11 samples.

Results

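The genes described here carry the symbols of the proteins of the 2 ribosomes of a pig muscle cell, the cytosolic one and the mitochondrial one. Members were chosen by symbol alone: a probe set had to carry a single gene symbol of the RPL, RPS or RPSA kind for the cytosolic class, with the RPS6 kinases left out, or of the MRPL or MRPS kind for the mitochondrial class. For each gene the probe set with the highest mean over all arrays was kept. This gave 122 genes of the 6765 read by a single symbol, 64 cytosolic (38 with a large and 26 with a small subunit symbol) and 58 mitochondrial (36 and 22). The symbols also took in RPS19BP1, a binding partner of RPS19 and no ribosomal protein itself, and MRPS36, now placed with the oxoglutarate dehydrogenase complex. The same symbols name 84 cytosolic and 76 mitochondrial protein-coding genes in the RefSeq pig annotation, so neither ribosome was read in full. All 122 members lay above the negative control probe sets on every array.

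Expression was measured in the *M. semimembranosus* (SM), a large muscle of the hind leg, on Affymetrix Porcine Genome arrays, 1 array per pig. All pigs were purebred Duroc gilts, put on their diets from about 10 weeks of age. The LP group (n = 5) was fed 128 g/kg crude protein and 7 g/kg lysine, and the HP group (n = 6) 217 g/kg crude protein and 13.0 g/kg lysine, both for 63 days on diets of equal energy. The gilts were blocked on initial body weight and penned in groups, and neither block nor pen is known per pig here, so a pen difference cannot be told apart from diet.

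The cytosolic ribosome translates the messages of the nuclear genome, and in growing muscle its number sets much of the capacity for protein deposition. Messages of nearly all its proteins carry a 5′ terminal oligopyrimidine (TOP) tract, through which mTOR, the kinase that senses amino acids and growth factors, adjusts their translation. The mitochondrial ribosome is a separate machine inside the organelle. Its proteins are encoded in the nucleus and imported, and it makes only the few membrane subunits of the respiratory chain and ATP synthase that mitochondrial DNA encodes.

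A gene of each ribosome also had a place in the study's qPCR. RPL4, a large subunit protein at the wall of the exit tunnel, was a reference gene there, beside B2M and TBP. MRPS6, a small subunit protein of the mitochondrial ribosome, was measured as a gene that did not change on the array. The study analysed the relative stability of its reference genes with GeNorm. Array values of RPL4 and MRPS6, given below, are a separate reading from that qPCR. The study's primers for RPL4 and MRPS6 are shown. They are written 5′ to 3′ with no letters marked.
RPL4 forward: agagatccaaagagccctccgc
RPL4 reverse: gcctggcgaagaatggtgtttc
MRPS6 forward: tggcttgcttagagccactt
MRPS6 reverse: ccaaagggcgttagtgttgt

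Several arrays stood apart before any gene was compared. The deposited values are log2 levels, and every array had the same median (6.70 to 6.71), but the upper end of the scale differed. The 99th percentile ran between 12.63 and 12.93 on the LP arrays and between 12.47 and 13.29 on the HP arrays. The 27 probe sets for the bacterial and phage RNAs added to each hybridisation, which hold no pig sequence, averaged 11.43, 11.49, 11.56, 11.77 and 11.64 on LP arrays 1 to 5. On HP arrays 1 to 6 they averaged 12.04, 12.19, 11.30, 12.22, 11.87 and 11.42. HP arrays 1, 2 and 4 were thus the brightest and HP array 3 the dimmest of the 11. Each main result is therefore given as deposited, after quantile normalization, which gives all arrays one distribution of values, and without HP arrays 1, 2 and 4. Both steps fix part of the outcome for bright probe sets in advance. Quantile normalization sets their levels, as a set, nearly equal across arrays. Leaving out HP arrays 1, 2 and 4 lowers their HP mean, while the dimmest array, HP array 3, stays in. The difference between 3′ and 5′ actin probe sets, a measure of RNA quality, was 5.12 to 5.93 in LP and 5.38 to 6.46 in HP, highest on HP arrays 2 and 4. For GAPDH probe sets it was 0.42 to 0.69 in LP and 0.49 to 0.78 in HP. The part of RNA quality in any difference was not tested.

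As deposited, but not after quantile normalization, the cytosolic class lay lower in LP muscle, while the mitochondrial class was centred near 0. The median LP minus HP difference was -0.17 (log2) over the 64 cytosolic genes, with 58 of them (90.6%) below 0, but after quantile normalization it was 0.02, with 16 below 0 (25%). Cyclic loess, which aligns arrays along the scale of levels, lay between, with a cytosolic median of -0.05 and 49 of the 64 below 0. Over the 58 mitochondrial genes it was 0.02, with 27 (46.6%) below 0, and after quantile normalization 0.06, with 20 (34.5%) below 0. All 23999 probe sets had a median of -0.02 (52.6% below 0) as deposited and 0 (49.6%) after quantile normalization. Cytosolic and mitochondrial medians thus stood 0.19 apart in the deposited values and 0.03 apart after quantile normalization (0.10 apart after cyclic loess). Without HP arrays 1, 2 and 4 the medians were 0.14 and 0.17, and only 1 of the 64 cytosolic genes was still below 0. These arrays held the highest HP cytosolic medians, so leaving them out raises the cytosolic difference in advance.

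Few members passed the threshold, an unadjusted limma p of 0.05 or less, the cut that the study applied to its own P-like values. In the limma fit over all probe sets, 2.15% of them were called higher in LP and 2.97% lower, and none passed a Benjamini-Hochberg adjusted p of 0.05 (1227 unadjusted calls, smallest adjusted p 0.644). None of the 64 cytosolic genes was called in either direction. Of the 58 mitochondrial genes, 1 (MRPS7) was called higher and 1 (MRPL32) lower, shares close to those over all probe sets. After quantile normalization 2.71% of all probe sets were called higher and 3.38% lower, again with none past the adjusted threshold (1461 unadjusted calls, smallest adjusted p 0.598). RPL26 was then the only cytosolic gene called, higher in LP, and 5 mitochondrial genes were called higher (MRPS7, MRPL58, MRPS12, MRPL45 and MRPS28) with MRPL32 the only one lower. These 6 made up 10.3% of the mitochondrial class, against 6.09% called over all probe sets in both directions, a gap that was not tested. Without HP arrays 1, 2 and 4, 4.7% of all probe sets were called higher and 3.15% lower. Then 1 cytosolic gene (RPL30) was called, higher, and 7 mitochondrial genes were called higher (MRPS7, MRPS28, MRPL45, MRPL58, MRPS34, MRPL11 and MRPS2) with none lower, and MRPS7 had an adjusted p of 0.486.

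**Figure D1:**
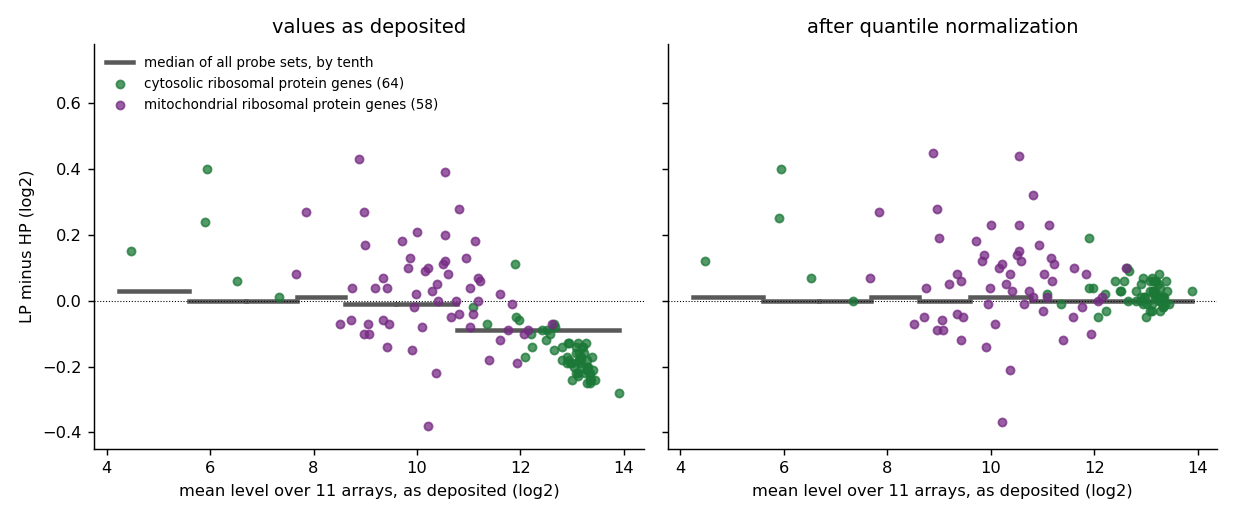
LP minus HP (log2) of the 64 cytosolic and 58 mitochondrial genes against mean level, as deposited (left) and after quantile normalization (right), with grey bars for the median of all probe sets in each 10% band of brightness above the dimmest 3 bands. The cytosolic genes at the bright end lie below 0 as deposited, with a class median of -0.17, and around 0 after quantile normalization, with a class median of 0.02.

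The cytosolic shift in the deposited values was shared by the brightest probe sets outside the class. Both had medians near 0 after quantile normalization, which sets the bright end of all arrays equal and so largely fixes this in advance. Ribosomal protein messages are among the most abundant in the tissue, and 59 of the 64 cytosolic genes fell in the brightest 10% of probe sets. In that band the median difference was -0.09 over all 2400 probe sets and -0.18 over the 59 cytosolic genes, against 0 and 0.02 after quantile normalization. In the brightest 1%, the 42 cytosolic genes had a median of -0.19 with all 42 below 0, and the 188 probe sets that belong to neither class had -0.21 with 185 below 0 (98.4%). After quantile normalization these medians were 0.01 and 0. The 5 cytosolic genes read only by dimmer probe sets (RPL26, RPL30, RPL37, RPS15A and RPS19BP1) had a median of 0.15, and none was below 0 under either scaling. Some genes had further probe sets, each dimmer than the one kept. Of these, 19 of 32 cytosolic and 9 of 19 mitochondrial ones lay below 0 as deposited. Mitochondrial genes spread lower on the scale, with 19 in the brightest 10% (median -0.04 as deposited, 0.06 after quantile normalization) and 39 below it (0.04 and 0.05).

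Pig by pig, the cytosolic medians followed the spike-ins. The cytosolic median was 12.82, 12.87, 12.91, 13.11 and 13.00 in LP pigs 1 to 5, and 13.34, 13.41, 12.65, 13.63, 13.05 and 12.76 in HP pigs 1 to 6. LP pigs all lay inside the HP range, whose 3 highest values came from the arrays with the brightest spike-ins and whose lowest came from the dimmest. Ordered by cytosolic median, the 11 pigs took the same places as when ordered by spike-in level, apart from LP pig 4 and HP pig 5, which changed places. The spike-ins themselves averaged 11.58 ± 0.13 in LP and 11.84 ± 0.40 in HP (SD), a difference of -0.26. In bulk muscle fewer cells of a type and less RNA per cell cannot be told apart, and the part of array brightness in the cytosolic shift was not tested.

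**Figure D2:**
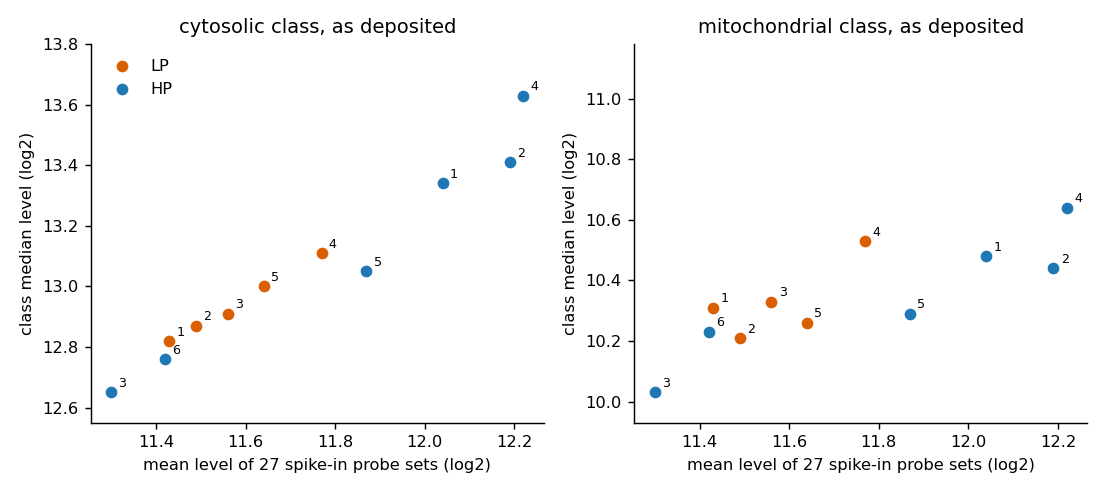
Class median level (log2) of the cytosolic genes (left) and mitochondrial genes (right) on each array against the mean level of the spike-in probe sets (log2), values as deposited, numbers giving the replicate. The cytosolic medians span 12.65 to 13.63 and climb with the spike-ins, and the mitochondrial medians span a smaller 10.03 to 10.64.

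The mitochondrial medians were 10.31, 10.21, 10.33, 10.53 and 10.26 in LP pigs 1 to 5 and 10.48, 10.44, 10.03, 10.64, 10.29 and 10.23 in HP pigs 1 to 6. They had the same extremes, HP pig 4 and HP pig 3, over a smaller range, but followed the spike-ins less closely in between. LP pig 4, for one, was second highest. On average the cytosolic class stood at 12.94 ± 0.12 in LP and 13.14 ± 0.39 in HP, and the mitochondrial class at 10.33 ± 0.12 in LP and 10.35 ± 0.21 in HP (SD). These differences of -0.20 and -0.02 were smaller than the spread among HP pigs. After quantile normalization the cytosolic medians of all pigs fell between 12.98 and 13.12, with a mean of 13.05 in both diets, and the mitochondrial class averaged 10.34 in both. For the bright cytosolic class this evenness is largely set by the method.

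Within a pig, the distance between the 2 class medians can be followed across pigs. It was 2.62 ± 0.09 in LP (2.51 to 2.75) and 2.79 ± 0.19 in HP (2.53 to 2.99) as deposited, a mean difference of -0.17 with overlapping groups. After quantile normalization it was 2.71 ± 0.08 in both diets. All pigs then lay between 2.59 and 2.83, with the diets interleaved.

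**Figure D3:**
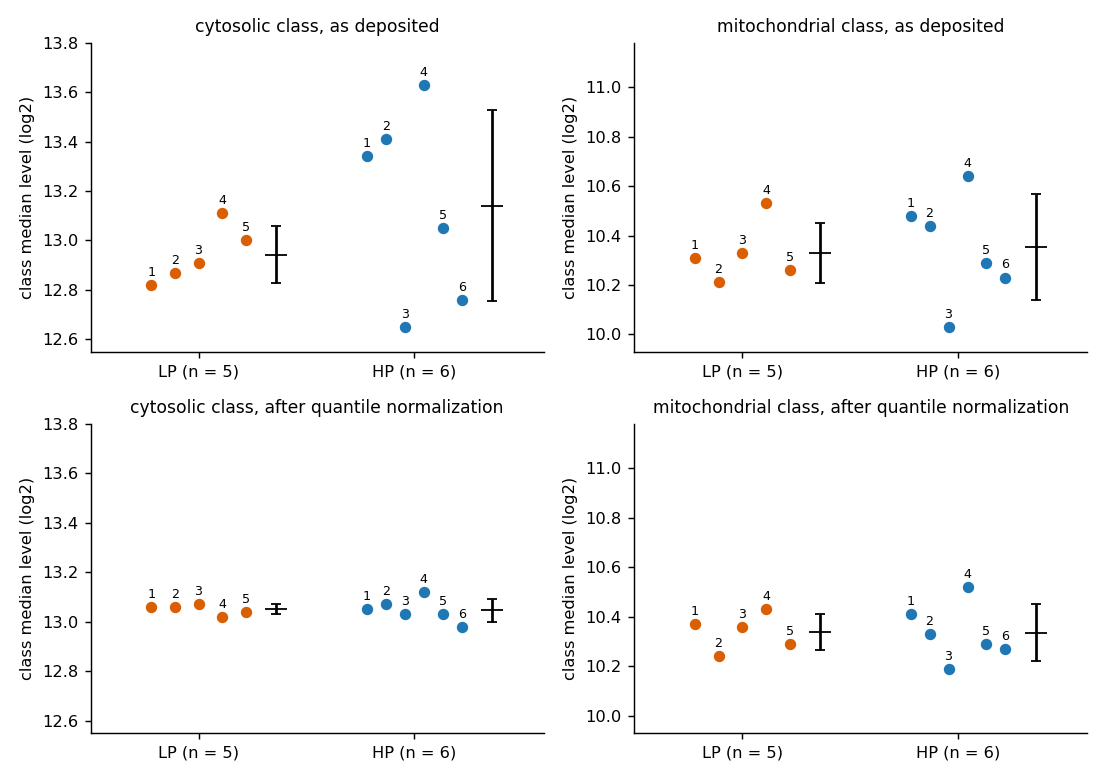
Median level (log2) of the cytosolic (left) and mitochondrial (right) class in each LP and HP pig, as deposited (top) and after quantile normalization (bottom), with mean and SD beside the points and replicate numbers above them. HP pigs 1, 2 and 4 carry the higher HP cytosolic mean as deposited, and both diets average 13.05 after quantile normalization.

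As deposited, the cytosolic genes moved largely together from array to array. The median within-diet SD of a cytosolic gene was 0.29 (0.14 to 0.65), but 0.06 when measured from the class median of each array. For a mitochondrial gene these were 0.21 and 0.14. Bright probe sets outside the class varied as much. The mean of the muscle fibre markers had a within-diet SD of 0.33, against 0.30 for the cytosolic class median. After quantile normalization the median SD was 0.07 (0.03 to 0.61) for a cytosolic and 0.15 for a mitochondrial gene. For bright genes this narrowing is largely set by the method. Standard errors of the diet difference narrowed less than the SD in the cytosolic class, as limma draws each gene's variance toward a value common to all probe sets. Their median was 0.18 as deposited and 0.08 after quantile normalization in the cytosolic class, and 0.14 and 0.11 in the mitochondrial class. RPL7, a large subunit protein, was the widest cytosolic gene under both scalings. It read 12.72, 11.76, 11.79, 13.02 and 13.02 in LP pigs, against 11.50, 12.56 and 13.27 (lowest, median, highest) in HP pigs, and its levels overlapped throughout.

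Both subunits of the cytosolic ribosome gave the same picture. The large subunit genes had a median difference of -0.16 (34 of 38 below 0) and the small subunit genes -0.18 (24 of 26 below 0) as deposited, against 0.03 and 0.01 after quantile normalization. RPS18, a protein of the small subunit head, gave the lowest cytosolic difference. Its level was 13.56, 13.66, 13.64, 13.96 and 13.90 in LP pigs and 13.46, 14.14 and 14.46 (lowest, median, highest) in HP pigs. All 5 LP pigs lay below the HP median, yet inside the HP range. The difference of -0.28 ± 0.20 (SE) had a limma p of 0.181 and an exact permutation p of 0.188, and it was 0.03 after quantile normalization and 0.05 without HP arrays 1, 2 and 4. Without HP array 3 it was -0.40 and passed the threshold.

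RPS6, the small subunit protein phosphorylated by the S6 kinases downstream of mTOR, also lay below the HP median in all 5 LP pigs. It read 12.95, 13.14, 13.18, 13.38 and 13.34 in LP pigs, against 12.96, 13.54 and 13.85 in HP pigs. The difference was -0.25 ± 0.19 (SE, exact permutation p = 0.199) as deposited and -0.02 after quantile normalization. RPS13, and RPS23 at the decoding centre, each differed by -0.24 as deposited, and by -0.02 and -0.01 after quantile normalization. RPSA, which also occurs at the cell surface as a laminin receptor, differed by -0.13 and 0.07 on those 2 scales. RPS27A, made as a fusion with ubiquitin, differed by -0.22 and 0.01.

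The stalk of the large subunit, built from RPLP0, RPLP1 and RPLP2, recruits the elongation factors. RPLP0 stood at 12.82, 12.84, 12.84, 13.06 and 12.87 in LP pigs and at 12.64, 13.08 and 13.55 in HP pigs. The LP pigs were close together and LP pig 4 was the highest of them. As deposited the stalk genes differed by -0.19, -0.24 and -0.10, and after quantile normalization by 0.01, -0.05 and 0.02. Second probe sets of RPLP0 and RPLP1 were far dimmer (mean levels 5.64 and 5.56). These differed by 0.19 and 0.77 as deposited and by 0.17 and 0.79 after quantile normalization. For that of RPLP1 the limma p was 0.0946 and 0.0958, and the exact permutation p 0.0519 and 0.0498. RPL5 and RPL11, which bind the 5S RNA and, when unassembled, the p53 regulator MDM2, differed by -0.21 and -0.14 as deposited and by 0.03 and 0.06 after quantile normalization. None of these genes passed the limma threshold under either scaling.

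RPL4, a qPCR reference gene beside B2M and TBP, read 13.00, 13.05, 13.12, 13.31 and 13.10 in LP pigs, against 12.82, 13.29 and 13.74 in HP pigs. It differed by -0.14 ± 0.18 (SE, limma p = 0.437, exact permutation p = 0.431) as deposited. After quantile normalization RPL4 differed by 0.06 ± 0.07 (SE, limma p = 0.417, exact permutation p = 0.0887). Its within-diet SD was 0.29 as deposited and 0.05 after quantile normalization. The symbol table gave no probe set for MRPS6, but the probe set that the study names for it read 11.19 ± 0.24 in LP and 11.21 ± 0.40 in HP (SD), a difference of -0.02 ± 0.20 (SE, exact permutation p = 0.900).

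Genes that left the cytosolic pattern were few and mostly dim. RPL26, a protein near the exit tunnel, was read by a probe set with a mean level of only 5.95. Its level was 6.36, 6.60, 6.08, 6.17 and 5.63 in LP pigs and 5.40, 5.86 and 5.97 in HP pigs. LP pigs 1 to 4 exceeded every HP pig, and LP pig 5 lay among the HP pigs. The difference of 0.40 ± 0.18 (SE) fell just short of the threshold as deposited (limma p = 0.051, exact permutation p = 0.0628) and just passed it after quantile normalization (0.40, limma p = 0.0496, exact permutation p = 0.0563). As deposited it passed without HP array 4 or 5 (0.44 each) and without LP array 5 (0.54). RPL30 (0.24) and RPS15A (0.15), also on dim probe sets, had exact permutation p of 0.180 and 0.355. RPL3, which lines the peptidyl transferase centre and is read by a bright probe set, was the exception at 0.11 as deposited and 0.19 after quantile normalization (exact permutation p = 0.390 and 0.225), with LP pig 1 highest of all pigs at 12.32.

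Paralogues of cytosolic proteins, which can replace the usual copy in some ribosomes, were read separately. RPL22 differed by -0.20 and its paralogue RPL22L1 by -0.06 as deposited, against 0.01 and 0.04 after quantile normalization. RPL26L1 differed by -0.07 and -0.01 on those scales, RPL36AL by -0.12 and 0.03, and RPS27L by -0.14 and -0.03. Probe sets for such near copies can share signal, so a paralogue and its parent gene are uncertain as separate measurements. RPL3L, the muscle paralogue of RPL3, and RPL10 were not read by a single-symbol probe set.

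Among mitochondrial genes the largest difference was that of MRPS7, a small subunit protein of the ribosome's head. It read 9.19, 9.07, 9.24, 8.97 and 9.11 in LP pigs and 8.29, 8.58 and 9.33 in HP pigs. The LP pigs were close together and above 5 of the 6 HP pigs, HP pig 4 being the highest of all. MRPS7 rose by 0.43 ± 0.18 (SE) in LP, a 1.35-fold higher level (limma p = 0.0329, adjusted p = 0.962, exact permutation p = 0.039). After quantile normalization the difference was 0.45 (limma p = 0.0167, exact permutation p = 0.0281), and without HP arrays 1, 2 and 4 it was 0.66 and still past the threshold. That step takes away HP pig 4, the highest for MRPS7, so it raises the difference in advance. The call was lost without any 1 of HP arrays 1, 3, 5 and 6 or LP arrays 1, 3 and 5, where the difference was 0.35 to 0.43.

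MRPL32, a large subunit protein whose cleavage by the m-AAA protease precedes ribosome assembly in yeast and mouse, went the other way. Its level was 9.66, 9.73, 10.14, 10.29 and 10.24 in LP pigs, against 10.00, 10.50 and 10.53 in HP pigs. All 5 LP pigs lay below the HP median, LP pigs 1 and 2 lay below every HP pig, and 5 of the 6 HP pigs lay above every LP pig. MRPL32 fell by 0.38 in LP (SE 0.16, limma p = 0.0374, adjusted p = 0.962, exact permutation p = 0.0346), and quantile normalization gave -0.37 (exact permutation p = 0.0195). A dimmer MRPL32 probe set also fell, by 0.42 as deposited (limma p = 0.0285, exact permutation p = 0.0303) and by 0.41 after quantile normalization (limma p = 0.0297). It was the only one called among the 51 dimmer probe sets of the members, with 5.11% called over all probe sets. Both MRPL32 probe sets read the same pigs, so they are not independent. The call on the brightest probe set was lost without any 1 of HP arrays 1, 2, 5 and 6 or LP arrays 1 and 2 (-0.36 to -0.29), and without HP arrays 1, 2 and 4 together (-0.33).

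**Figure D4:**
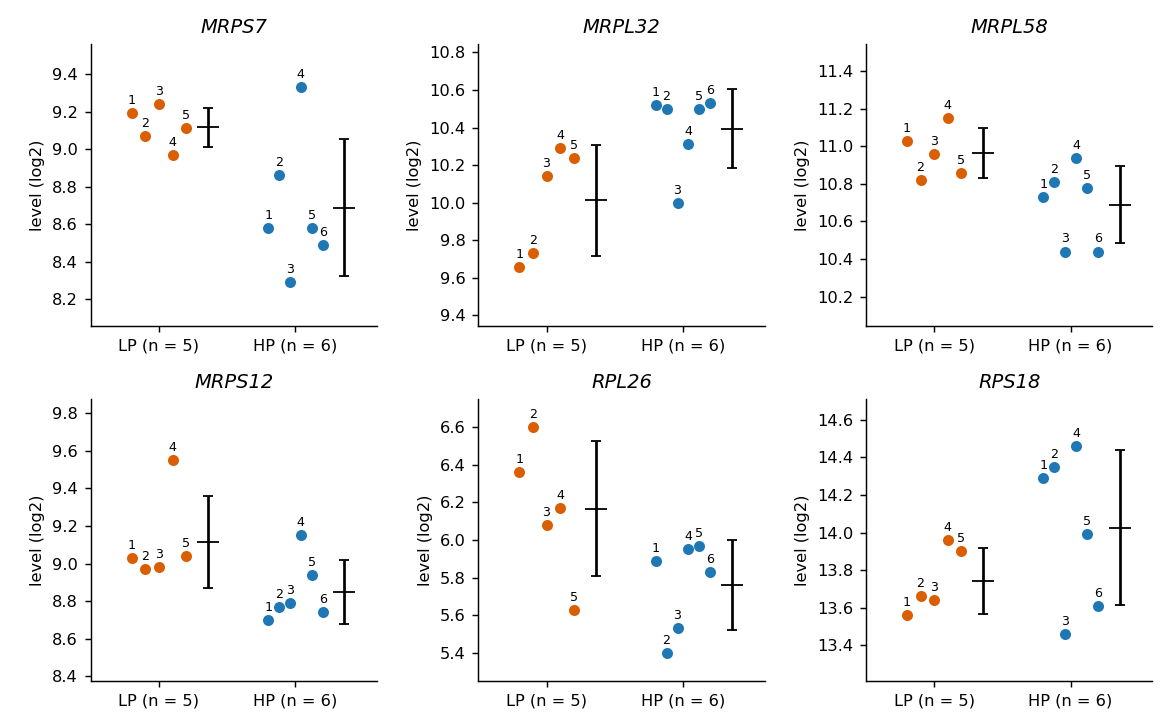
Level (log2, as deposited) of MRPS7, MRPL32, MRPL58, MRPS12, RPL26 and RPS18 in each LP and HP pig, with mean and SD beside the points; each panel spans the same range of 1.5 log2 units. MRPS7 is higher and MRPL32 lower in LP, and RPS18 shows the HP spread common to bright probe sets, with a difference of -0.28 as deposited and 0.03 after quantile normalization.

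MRPL58, a peptidyl-tRNA hydrolase that became part of the large subunit and can free stalled mitochondrial ribosomes, was near the threshold as deposited. It read 11.03, 10.82, 10.96, 11.15 and 10.86 in LP pigs and 10.44, 10.75 and 10.94 in HP pigs. Each LP pig exceeded 5 of the 6 HP pigs. The difference of 0.28 ± 0.13 (SE) had a limma p of 0.0529 and an exact permutation p of 0.026. After quantile normalization it rose by 0.32 ± 0.09 (SE, limma p = 0.00487, adjusted p = 0.707) and the groups no longer overlapped, giving the smallest exact permutation p these group sizes allow (0.00216). As deposited, the difference was 0.33 and past the threshold without HP array 4, and 0.23 and short of it without HP array 3.

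Further mitochondrial genes missed the threshold on all 11 arrays as deposited and passed it after quantile normalization. MRPS12, at the decoding centre, read 9.03, 8.97, 8.98, 9.55 and 9.04 in LP pigs and 8.70, 8.78 and 9.15 in HP pigs, LP pig 4 being the highest. It differed by 0.27 as deposited (limma p = 0.0838) and rose by 0.28 after quantile normalization (limma p = 0.0484), with an exact permutation p of 0.0346 on both scales. Without LP array 4 the deposited difference was 0.16, and without HP array 4 it was 0.33 and passed the threshold. MRPL45, which tethers the ribosome to the inner membrane, read 10.07, 10.09, 10.02, 10.30 and 10.08 in LP pigs and 9.64, 9.93 and 10.16 in HP pigs. The difference was 0.21 as deposited (limma p = 0.105, exact permutation p = 0.0649) and 0.23 after quantile normalization (limma p = 0.032, exact permutation p = 0.00649). As deposited it passed without HP array 4 (0.27). For MRPS28, a small subunit protein, LP pigs read 10.54, 10.62, 10.68, 10.89 and 10.58 and HP pigs 10.18, 10.49 and 10.67. It differed by 0.20 as deposited (limma p = 0.162, exact permutation p = 0.119) and by 0.23 after quantile normalization (limma p = 0.0368, exact permutation p = 0.00649), where the groups did not overlap. MRPS2, a small subunit protein at 7.91, 8.02, 8.11, 8.16 and 7.80 in LP pigs and 7.45, 7.75 and 8.02 in HP pigs, was not called under either scaling (0.27 on both, limma p = 0.0609 and 0.0507, exact permutation p = 0.0411 on both).

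MRPL3, near the mitochondrial peptidyl transferase centre, had the second-highest difference as deposited (0.39 ± 0.33, SE) but did not pass the test (exact permutation p = 0.333), and without HP array 3 the difference was 0.07. Its LP levels were 10.85, 10.74, 10.66, 10.87 and 10.66, and HP levels lay between 10.54 and 10.86 apart from HP pig 3 at 8.81. MRPL11, at the base of the stalk, differed by 0.13 (exact permutation p = 0.400). Below 0, MRPL2, MRPL51 and MRPL53, all of the large subunit, differed by -0.22, -0.19 and -0.18 (exact permutation p of 0.208, 0.242 and 0.165) as deposited and by -0.21, -0.10 and -0.12 after quantile normalization. MRPL12 was not read by a single-symbol probe set. MRPS36 differed by 0.18 (exact permutation p = 0.413).

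A matched comparison was possible where both ribosomes keep a protein of the same universal family. In 19 families each ribosome had a gene on the array, and the mitochondrial gene's LP minus HP difference lay above the cytosolic one's in 17 as deposited (median gap 0.19) and in 11 after quantile normalization (median gap 0.03). As deposited the widest gap was in uS12, the decoding centre protein, where MRPS12 differed by 0.27 and RPS23 by -0.24. Their gap of 0.50 (exact permutation p = 0.013) was 0.28 after quantile normalization (exact permutation p = 0.0476). In uL24 the gap ran the other way, with MRPL24 at -0.06 and RPL26 at 0.40 (gap -0.47, exact permutation p = 0.026), and it hardly moved with quantile normalization (-0.45, exact permutation p = 0.0281), where it was the widest of the 19. This pair rests on the dim RPL26 probe set, with a mean level of 5.95. In uS2, MRPS2 differed by 0.27 and RPSA by -0.13, a gap of 0.41 as deposited and 0.20 after quantile normalization (exact permutation p = 0.0173 and 0.0498).

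The smallest gaps were in uS9 (MRPS9 and RPS16, 0.04), uL2 (MRPL2 and RPL8, -0.06) and uL30 (MRPL30 and RPL7, 0.08). After quantile normalization these were -0.10, -0.24 and 0.06. The p of a pair is for that pair alone, of 19 computed, with no adjustment over them. The gaps in 17 of the 19 families were narrower after quantile normalization, and the part of array brightness in them was not tested.

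**Figure D5:**
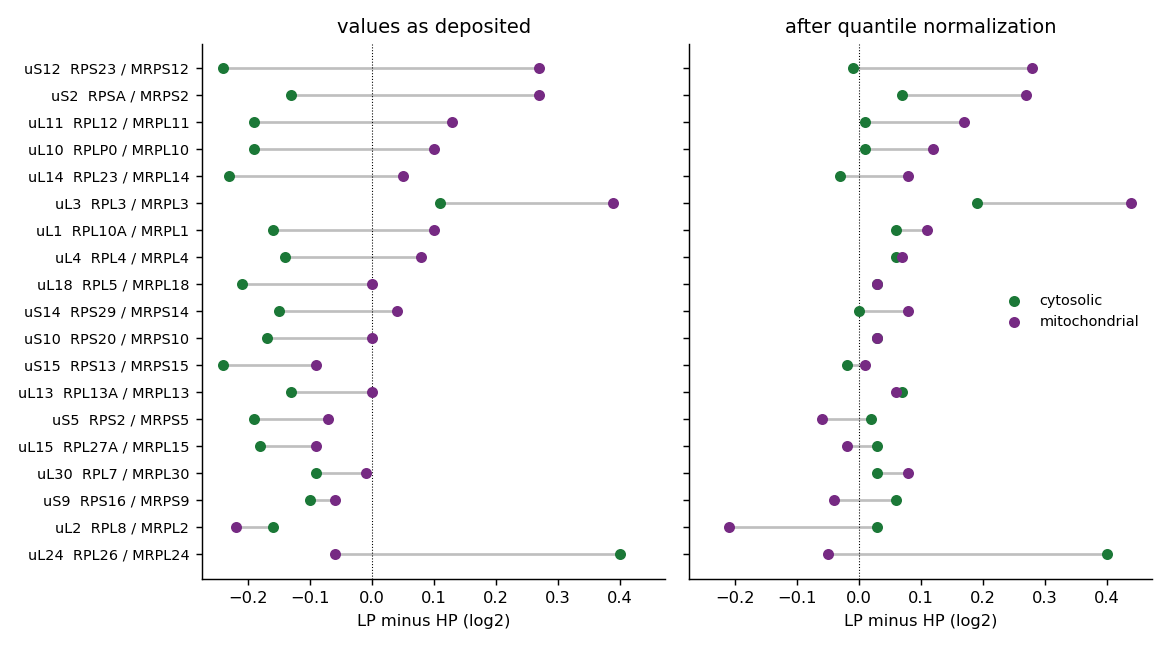
LP minus HP (log2) of the cytosolic and the mitochondrial member of 19 universal ribosomal protein families, as deposited (left) and after quantile normalization (right), each line joining the members of a family. The mitochondrial gene lies to the right in 17 families as deposited and in 11 after quantile normalization.

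Other genes of the ribosome pathways were read beside the members. Of 32 genes for ribosome assembly and RNA polymerase I (40 listed), 2 were called higher in LP as deposited (2.15% over all probe sets) and 3 after quantile normalization (2.71%), with none lower. Their medians were 0.01 and 0.02, and the shares were not tested against each other. BOP1, which matures the large subunit RNA, rose by 0.71 (exact permutation p = 0.0152, mean level 4.10), and LTV1, an assembly factor of the small subunit, rose by 0.38 (exact permutation p = 0.00433). NHP2, a protein of the pseudouridylation guides, differed by 0.24 as deposited (limma p = 0.0665, exact permutation p = 0.0455) and rose by 0.29 after quantile normalization (limma p = 0.0195). Of 16 genes for mitochondrial translation factors and transcription (29 listed), none was called under either scaling, and their medians were 0.03 and 0.03.

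Other TOP messages, among them 2 of ribosomal components outside the symbol rule (FAU and RACK1), had medians close to those of the cytosolic class. All but EEF1A1 fell in the brightest 10% of probe sets. The shift was not particular to TOP messages, as the muscle fibre markers, also bright, had medians of -0.25 as deposited and 0 after quantile normalization. Of 17 read (21 listed), 16 lay below 0 with a median of -0.16 as deposited, and 8 lay below 0 with a median of 0.01 after quantile normalization. EEF1B2, an elongation factor subunit, differed by -0.22 and 0.01 on those scales, TPT1, a growth-related calcium binding protein, by -0.28 and -0.05, and RACK1, a scaffold on the small subunit, by -0.16 and 0.05. VIM, the intermediate filament protein vimentin, was the only one called, falling by 0.28 (limma p = 0.0341, exact permutation p = 0.0152), and its difference was -0.20 after quantile normalization (limma p = 0.153). EEF1A1, read by a dimmer probe set, was the only one above 0, at 0.10.

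Markers of the tissue's cell types were checked against the same shift. All 7 muscle fibre markers read (of 10) were bright on every array and lay below 0 as deposited (median -0.25, none called), and their median was 0 after quantile normalization. Their mean level was 13.17 to 13.65 in LP and 13.10 to 14.06 in HP. The 4 adipocyte markers read (of 7) had a median of 0.11 with none called, and their mean level was 8.45 to 9.48 in LP and 8.34 to 9.28 in HP. Endothelial (5 of 5 read), macrophage (3 of 5), fibroblast (3 of 5) and red blood cell markers (2 of 4) had medians of -0.10, -0.33, -0.28 and 0.15 with none called. Of 5 lymphocyte markers read (of 6; median 0.21), CD79B alone was called, lower in LP, on a probe set above the negative controls on no array. The part of cell type proportions in any difference was not tested.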

How the data were processed

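Total RNA of SM muscle from 11 gilts was hybridised to Affymetrix Porcine Genome arrays, 1 per pig, and grouped by the diet in the deposited labels. The authors deposited log2 expression levels per probe set. Their methods name puma for fold changes and for the P-like values on which the study's threshold of 0.05 was set. How background and scaling were handled for these levels is not given in the sources used here. Every array column was used. The table holds 24123 probe sets, of which 124 controls were dropped, leaving 23999 for the fit. A symbol came from the platform annotation where it gave 1 (10069 probe sets), and 198 probe sets with several symbols were not named. Of the 122 members, 121 had an Entrez ID in RefSeq, each with the same symbol.

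LP minus HP was fitted in R 4.3.3 with limma 3.58.1 (constant prior, no block, two-sided) with the study's cut of 0.05 applied to limma's unadjusted p, which is not the P-like value of puma. Single genes and family pairs were also tested by an exact two-sided permutation over all 462 ways to assign 5 and 6 pigs. Quantile normalization used limma. A probe set was above background on an array if its level was over that of all 23 negative controls there. Named genes were those past the threshold under either scaling, the 4 smallest p per class and direction, genes fixed by role, and the 3 widest and 3 narrowest family pairs. The members and lists were chosen with earlier results of these data known. The fit was tested on simulated data. The number of pigs limits the precision, and levels between genes were set side by side only to rank probe sets by brightness and to follow the distance between class medians across pigs, not as amounts of RNA. Alternatives were other normalizations (centring, cyclic loess), filters, priors, weights per array, a block on replicate number, the mean of a gene's probe sets, and leaving out arrays.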

Additional observations from a re-analysis of the deposited data

Results flagged for a closer look

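In 82 groups of levels of the named genes and both class medians (5 LP or 6 HP pigs each), 5 held a pig that stood far from the rest of its group, by Dixon's criterion at its 95% critical value; chance alone marks about 1 in 20 groups. In 4 of them the pig was LP pig 4, as its highest value. MRPS12 read 9.55 in LP pig 4, against 8.97 to 9.04 in the other LP pigs. MRPL45 read 10.30 there, against 10.02 to 10.09. RPLP0 read 13.06, against 12.82 to 12.87, and RPL26L1 11.52, against 11.21 to 11.29. LP pig 4 also had the brightest spike-ins of the LP arrays (11.77). The remaining one was MRPL3 in HP pig 3, at 8.81, against 10.54 to 10.86 in the other HP pigs, on the array with the dimmest spike-ins (11.30).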

How the results depend on the processing

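Quantile normalization gave 1 cytosolic gene higher, 5 mitochondrial genes higher, a cytosolic median of 0.02 and a distance between the class medians of -0.03 (-0.19 as deposited). It turned RPS18 (0.03), RPLP0 (0.01), RPLP2 (0.02), RPSA (0.07), RPL4 (0.06), RPL5 (0.03), RPL11 (0.06), RPS27A (0.01), RPL22 (0.01), RPL22L1 (0.04), RPL36AL (0.03), RPL7 (0.03), RPL8 (0.03), RPS16 (0.06) and MRPL30 (0.08) above 0. Cyclic loess gave 1454 calls over all 23999 probe sets, and also 1 cytosolic and 5 mitochondrial genes higher. With cyclic loess the cytosolic median was -0.05 with 49 of 64 below 0, and the distance was -0.10. That normalization turned RPL22L1 (0.03), RPL7 (0.01), RPS16 (0.01) and MRPL30 (0.08). Leaving out HP arrays 1, 2 and 4 gave 1884 calls (1227 with all arrays), 1 cytosolic gene higher, 7 mitochondrial genes higher and 0 lower, a cytosolic median of 0.14 and a distance of -0.02. It turned RPS18 (0.05), RPS13 (0.04), RPS23 (0.06), RPS6 (0.07), RPLP0 (0.12), RPLP1 (0.07), RPLP2 (0.19), RPSA (0.16), RPL4 (0.17), RPL5 (0.07), RPL11 (0.18), RPS27A (0.09), RPL22 (0.08), RPL22L1 (0.06), RPL26L1 (0.07), RPL36AL (0.12), RPS27L (0.09), RPL8 (0.13), RPS16 (0.20), MRPL51 (0.02), MRPL24 (0.07), MRPL30 (0.18) and MRPS9 (0.05). Array weights gave 1599 calls over all 23999 probe sets, with 1 cytosolic and 3 mitochondrial genes higher, and turned MRPL30 (0.02). Leaving out all probe sets with a mean level below the median gave 710 calls and 3 mitochondrial genes higher. Fewer probe sets were tested there, so the 710 cannot be set directly beside the 1227. The 20th percentile as a floor gave 1239 calls over all 23999 probe sets, with 1 cytosolic and 4 mitochondrial genes higher. A trended robust prior gave 1229 calls and 2 mitochondrial genes higher, and the mean of a gene's probe sets gave 3 mitochondrial genes higher. Centring on the median changed no call or direction of a named gene. The replicate numbers showed no pairing of the pigs in their levels (correlations of deviations -0.07 to 0.08), which cannot tell whether the numbers follow the weight blocks. With the number as a block, 1232 of all 23999 probe sets were called, with 0 mitochondrial genes higher and 0 lower. In that fit MRPS7 (0.39) and MRPL32 (-0.35) lost their calls, and the mitochondrial median was -0.01. Leaving out each array in turn gave 1066 to 1521 calls, 0 to 1 cytosolic genes higher and 0 to 1 lower, 0 to 5 mitochondrial genes higher and 0 to 2 lower. The cytosolic median was then -0.27 to -0.08, the mitochondrial -0.04 to 0.06 and their distance -0.24 to -0.13. RPL7 (-0.30 to 0.09), MRPL30 (-0.08 to 0.06) and MRPS9 (-0.11 to 0.02) changed sign. The cause of these changes was not tested.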
